A study of Mus musculus with 6 samples.

Results

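Progenitors lacking the Bcl11b timing enhancer (ΔTE) were compared with wild-type (WT) progenitors, gene by gene, in the 2 libraries that began from sorted DN2a cells. A barcode counted as a cell when it held at least 200 genes, at most 2000 unique molecular identifiers (UMIs, each marking 1 captured RNA molecule) and at most 30% mitochondrial UMIs, which left 19489 WT and 11594 ΔTE cells, 31083 of the 60671 cells of all 6 libraries. WT were C57BL/6 mice with both copies of Bcl11b carrying a yellow fluorescent protein (YFP) reporter, and ΔTE mice had the same reporter and lacked the enhancer on both copies, so the controls were reporter mice too. Bone marrow of mice aged 2 to 4 months, males and females together and 6 to 8 mice pooled per genotype, was enriched for CD117 and cultured on OP9-DL1, a mouse bone marrow stromal line that displays the Notch ligand DLL1. CD44+CD25+ cells with the Bcl11b reporter still off (DN2a) were then sorted and put back on OP9-DL1 for 4 days with Flt3-L, IL-7, IL-2, SCF and IL-15, and profiled by sci-RNA-seq3, which labels RNA inside fixed, permeabilised cells through rounds of well barcodes. DN1 (CD44+CD25-) and DN2b (CD44+CD25+, reporter on) starts were profiled alongside.

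Bcl11b is a zinc finger transcription factor that T-cell progenitors switch on as they commit to the T lineage, and its loss lets such cells take on features of natural killer (NK) cells and innate lymphoid cells (ILCs). PLZF, the product of Zbtb16, is a BTB zinc finger factor that marks ILC precursors and innate-like lymphocytes. DN2a cells stand just before commitment, and the enhancer removed in ΔTE mice governs when Bcl11b is switched on. The comparison asks what the descendants of Bcl11b-negative progenitors expressed when that switch lacked its enhancer.

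Among the genes whose levels are followed below, 5 have the 250 bases before their start given first. These stretches are from RefSeq on GRCm38.p6, each read 5′ to 3′ on the strand of its gene. They lie at chr12:108003415-108003664 (minus strand, Bcl11b), chr9:44980432-44980681 (minus strand, Cd3g), chr9:44981536-44981785 (plus strand, Cd3d), chr13:113100982-113101231 (minus strand, Gzma) and chr1:171234350-171234599 (minus strand, Fcer1g). The GENCODE annotation, used for the other positions, starts Bcl11b at 108003602, inside the stretch given here. Capitals mark any match, on either strand, to a short core sequence of 4 transcription factor families. For RUNX factors the letters searched were TGTGGT. For the GATA family, which includes Gata3, they were AGATAA. For TCF and LEF factors they were CTTTGA, and for E proteins, which bind E-boxes, they were CAGCTG.
Bcl11b: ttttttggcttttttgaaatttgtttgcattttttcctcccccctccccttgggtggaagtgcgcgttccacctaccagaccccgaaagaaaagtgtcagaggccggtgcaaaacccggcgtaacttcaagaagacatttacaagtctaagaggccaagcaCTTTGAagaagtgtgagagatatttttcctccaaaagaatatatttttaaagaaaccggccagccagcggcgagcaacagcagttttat
Cd3g: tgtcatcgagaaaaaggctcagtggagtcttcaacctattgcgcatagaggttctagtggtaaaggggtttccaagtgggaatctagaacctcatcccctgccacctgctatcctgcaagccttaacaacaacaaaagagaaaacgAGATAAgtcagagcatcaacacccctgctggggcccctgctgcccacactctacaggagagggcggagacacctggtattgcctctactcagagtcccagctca
Cd3d: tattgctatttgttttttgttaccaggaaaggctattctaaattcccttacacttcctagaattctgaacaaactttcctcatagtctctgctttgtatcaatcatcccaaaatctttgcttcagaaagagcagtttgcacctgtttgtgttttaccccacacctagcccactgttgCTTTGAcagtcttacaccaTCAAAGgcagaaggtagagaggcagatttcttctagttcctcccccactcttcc
Gzma: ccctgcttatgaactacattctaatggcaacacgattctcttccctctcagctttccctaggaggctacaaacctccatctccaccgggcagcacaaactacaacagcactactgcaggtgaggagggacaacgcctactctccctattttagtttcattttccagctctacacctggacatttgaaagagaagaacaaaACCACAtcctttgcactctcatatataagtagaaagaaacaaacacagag
Fcer1g: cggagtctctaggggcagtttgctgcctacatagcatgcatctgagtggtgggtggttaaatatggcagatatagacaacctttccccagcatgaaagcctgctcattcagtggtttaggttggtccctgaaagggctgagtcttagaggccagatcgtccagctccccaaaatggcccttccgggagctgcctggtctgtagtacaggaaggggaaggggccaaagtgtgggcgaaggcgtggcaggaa
The Bcl11b and Cd3d stretches held 1 and 2 TCF/LEF matches, the Cd3g stretch 1 GATA match, the Gzma stretch 1 RUNX match and the Fcer1g stretch 0. The Gata3 stretch, not printed, also held 0, and Zbtb16 had no promoter entry. Of all 32851 promoters in the table, 14.0% held the RUNX letters, 9.99% the GATA letters, 13.8% the TCF/LEF letters and 13.0% the E-box letters, so that each of these matches is common. Cd3g and Cd3d are neighbours read in opposite directions on chromosome 9.

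Each group was 1 library from 1 pooled culture, so no test between genotypes was possible. The 3 reverse-transcription wells of a library are technical parts of that culture and serve here as values beside each other, not as replicates. The libraries held 14555100 (WT) and 12998440 (ΔTE) UMIs over all barcodes, and 7773877 and 4976941 UMIs without mitochondrial genes in the cells kept. The median per cell was 386 and 452 UMIs with mitochondrial genes, and 332 and 359 without them. Between libraries 0 barcodes were shared. The ΔTE wells did not resemble each other. The mitochondrial limit removed between 1.48% and 4.43% of cells in the WT wells, 1.84% in ΔTE well 2, but 24.5% and 48.0% in ΔTE wells 1 and 3. Cells with at least 3 UMIs on a list of 12 stromal genes (collagens, Fn1, Sparc and others), taken as OP9-DL1 cells, formed 10.3%, 9.22% and 8.69% of the WT wells and 2.70%, 13.4% and 1.61% of the ΔTE wells. Before the limit those shares lay between 9.98% and 11.0% in the WT wells and between 9.87% and 14.5% in the ΔTE wells, so the gap in stromal cells arose at the limit. ΔTE well 2 also differed in gene length, since its level over the mean of wells 1 and 3 had a median of 0.54 (log2) for 2096 tested genes under 10 kb and −0.52 for 245 genes of 300 kb or more. The genes the results turn on are therefore given per well below, and the others as library ratios.

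**Figure D1:**
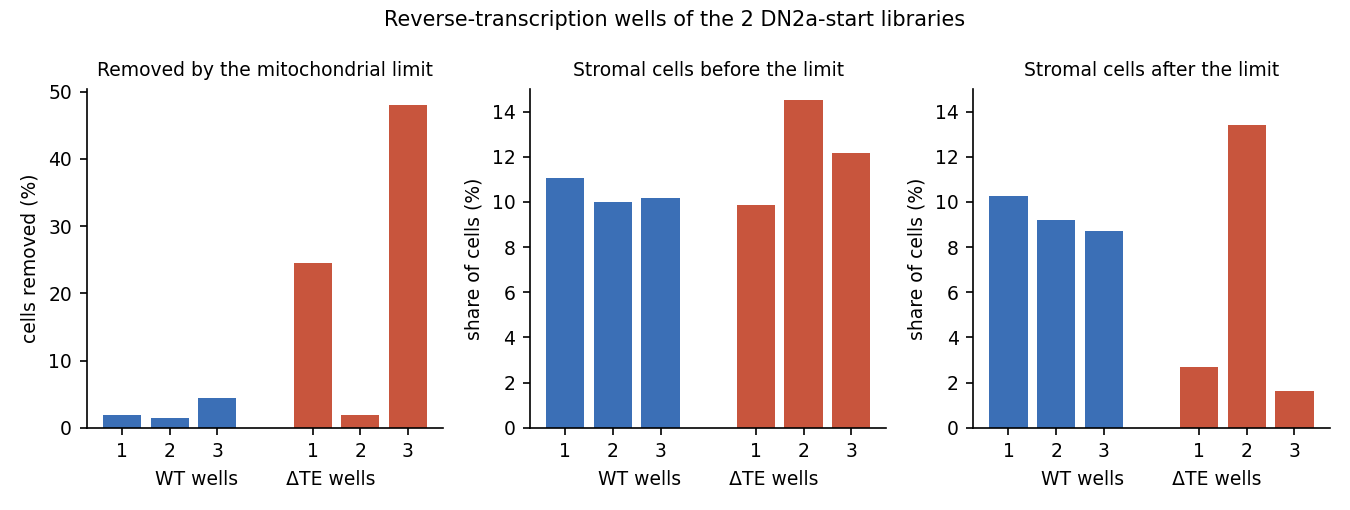
Bars show, for the 3 reverse-transcription wells of each DN2a-start library, the percentage of cells removed by the limit of 30% mitochondrial UMIs (left) and the percentage of stromal cells before (middle) and after (right) that limit. Removal reached 24.5% and 48.0% in ΔTE wells 1 and 3, and it is after the limit that their stromal shares drop to 2.70% and 1.61%.

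Levels are UMIs scaled to a total of 1000000 non-mitochondrial UMIs (CPM), with the ΔTE library rescaled so that the median tested gene had a log2 ratio of 0, a shift of −0.01. Ratios are log2 of ΔTE over WT, and each interval is an exact binomial 95% interval that covers counting error only. Of 9899 genes with at least 100 UMIs over both libraries, 177 (1.79%) were at least 1.5-fold higher in ΔTE and 443 (4.48%) at least 1.5-fold lower. All 3 ΔTE wells lay above all 3 WT wells for 139 of the higher genes (1.4% of those tested), and below them for 162 of the lower genes (1.64%). Most of the lower genes were stromal: 318 of the 443 had at least 4-fold higher CPM in stromal cells than in the other cells, against 4 of the 177 higher genes and 877 of all 9899. Without cells holding 2 or more stromal UMIs, 212 of 9221 tested genes (2.3%) were higher and 154 (1.67%) lower, and of the first counts 151 of 177 and 127 of 443 kept their call. Among the 139 and 162 genes with separate wells, 80 and 63 stayed past 1.5-fold in well 2 alone, in wells 1 and 3 without well 2, and without the stromal cells. These genes were picked on those same wells, which fixed their direction by well, so the counts are not an independent check.

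**Figure D2:**
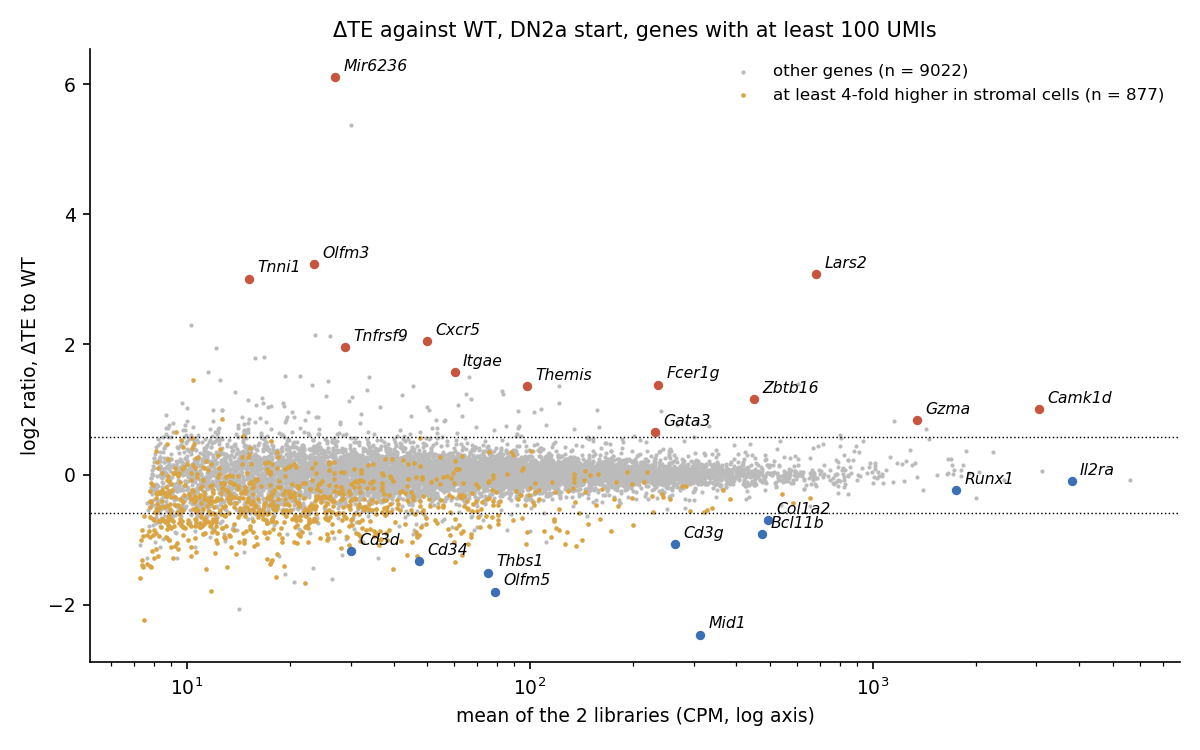
Each point is 1 of 9899 genes with at least 100 UMIs, placed by its mean level in both libraries (CPM, log axis) and its log2 ratio of ΔTE to WT. Dotted lines mark 1.5-fold. The 877 genes at least 4-fold higher in stromal cells sit mostly below 0, whereas Bcl11b, Cd3g, Cd3d, Cd34 and Mid1 are low, and Zbtb16, Fcer1g and Gzma high, outside that set.

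Bcl11b, which should be reduced where its enhancer is missing, was lower in ΔTE in every start. In the DN2a start its level was 636, 607 and 626 CPM in the WT wells and 368, 225 and 383 CPM in the ΔTE wells, so that the highest ΔTE well lay well under the lowest WT well. The log2 ratio was −0.92 (−1.002 to −0.84), −0.97 without stromal cells, −0.72 without ΔTE well 2 and −1.51 for that well alone. In sums over a library, fewer cells of a type and less RNA per cell cannot be told apart. In the DN1 start the library levels were 302 CPM (WT) and 115 CPM (ΔTE), a log2 ratio of −1.39 (−1.54 to −1.25), and in the DN2b start 1104 and 702 CPM, a ratio of −0.65 (−0.76 to −0.54). Both genotypes had their highest Bcl11b level in the DN2b start and their lowest in the DN1 start. The starts lost unequal shares of cells to the mitochondrial limit, as given below. Of 9 other tested genes within 1 Mb of Bcl11b on chromosome 12, 0 passed 1.5-fold in either direction, and their median ratio was 0.03. All 9 lay at higher coordinates than Bcl11b, so the side of lower coordinates held no tested gene. Among them Yy1, a zinc finger factor of nearly every cell type, stood at 0.03 (−0.08 to 0.14), and Degs2 had the largest ratio, −0.48 (−0.98 to −0.00), on 117 and 53 UMIs.

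Fewer ΔTE than WT cells held a Bcl11b molecule at equal depth. With each cell thinned to 300 UMIs, which left 11715 WT and 7720 ΔTE cells and left out 7774 and 3874 shallower cells, 15.4% of WT cells (14.8 to 16.1, Clopper-Pearson 95%) and 8.65% of ΔTE cells (8.03 to 9.30) held at least 1 Bcl11b UMI. By well, the shares were 16.0%, 14.7% and 15.8% in WT and 9.57%, 6.17% and 9.89% in ΔTE. Positive cells held a mean of 1.23 and 1.16 UMIs, so few that a share cannot separate fewer expressing cells from less RNA in each. Unthinned, the shares were 18.7% and 10.9%. Stromal cells, which should lack the gene, gave 3.85% in WT and 1.29% in ΔTE at the same depth. The Zbtb16 shares ran the other way, at 7.43% (6.96 to 7.92) in WT and 14.3% (13.6 to 15.1) in ΔTE, with 1.64% and 1.66% in stromal cells. By well, Zbtb16-positive cells were 7.66%, 7.55% and 7.08% in WT and 16.3%, 9.90% and 15.8% in ΔTE. Cells with both transcripts were rare in both libraries, at 0.990% (0.819 to 1.19) and 1.02% (0.811 to 1.27). A cell without a UMI is not shown to lack the transcript, and the shares in stromal cells show that a UMI does not by itself mark an expressing cell.

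**Figure D3:**
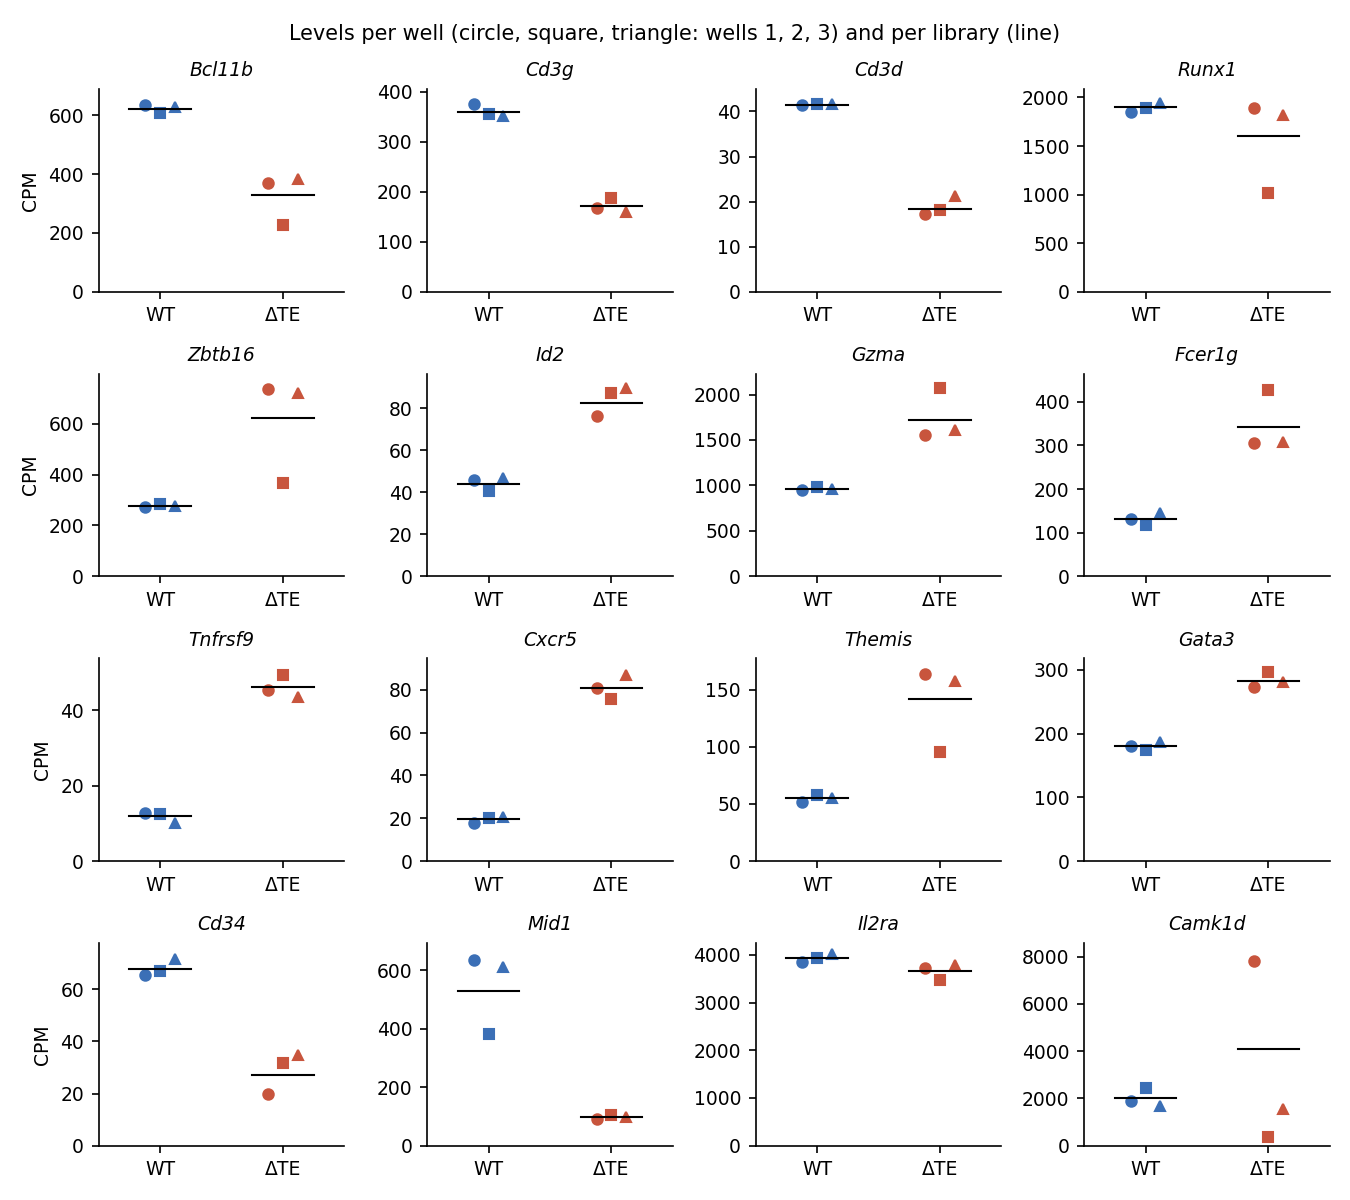
Levels (CPM, linear axes from 0) of 16 genes in the 3 WT and 3 ΔTE wells of the DN2a start; circles, squares and triangles are wells 1, 2 and 3 and each line is the library. The wells are separate for Bcl11b, Cd3g, Cd3d, Zbtb16, Id2, Gzma, Fcer1g, Tnfrsf9, Cxcr5, Themis, Gata3, Cd34 and Mid1. Runx1 and Zbtb16 are much lower in ΔTE well 2 than in wells 1 and 3, and Camk1d is high in ΔTE well 1 alone.

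The T-cell receptor signalling genes split in 2 directions. Of 15 tested members of the CD3, pre-TCR and proximal signalling list, 4 were lower and 3 higher at 1.5-fold, all with separate wells, and the list median was 0.06. Over all tested genes 4.48% were lower and 1.79% higher, the shares to set beside this and every later list count. The lower members were 3 CD3 chains and Cd5. Cd3g, a signalling chain of the T-cell receptor complex, was at 375, 355 and 351 CPM in WT and 168, 188 and 160 CPM in ΔTE, with no overlap and a ratio of −1.06 (−1.18 to −0.95). Its neighbour Cd3d, another chain of the complex, was at 41.4, 41.6 and 41.6 CPM in WT and 17.2, 18.2 and 21.3 CPM in ΔTE, with a ratio of −1.17 (−1.52 to −0.83). Cd3e stood at −0.89 (−1.28 to −0.52) and Cd5, an inhibitory co-receptor of T cells, at −0.94 (−1.28 to −0.60). Ptcra, which encodes the pre-T-cell receptor alpha chain, had 24 and 6 UMIs and was not tested. Cells with a Cd3g UMI were 7.61% of thinned WT cells and 3.92% of thinned ΔTE cells, with 2.36% and 0.739% in stromal cells, and by well 7.63%, 7.70% and 7.47% in WT and 4.04%, 3.55% and 4.16% in ΔTE.

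The 3 higher members act downstream of or beside the receptor. Themis, a signalling adaptor of thymocytes, was at 51.6, 57.4 and 55.0 CPM in WT and 163, 95.1 and 157 CPM in ΔTE, with a ratio of 1.36 (1.19 to 1.54). Txk, a Tec family kinase, stood at 1.04 (0.80 to 1.28) and Cd28, a costimulatory receptor, at 0.88 (0.50 to 1.27). All 3 stayed past 1.5-fold in well 2 alone, at 0.75, 0.60 and 0.60. Lck, the kinase that phosphorylates the CD3 chains, stood at 0.06 (−0.05 to 0.16), and Cd247, the zeta chain of the complex, at 0.37 (0.25 to 0.48) with overlapping wells. The share of thinned cells holding at least 2 UMIs on the whole list came to 11.7% for WT (11.2 to 12.3) and 12.1% for ΔTE (11.4 to 12.9).

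Most T-lineage factors other than Bcl11b were close to WT. Of 17 tested, 2 were higher and Bcl11b alone was lower, beside 1.79% and 4.48% of all tested genes, with a median of 0.15. Lef1, a TCF/LEF factor of T-cell development, was at 28.2, 25.7 and 22.8 CPM in WT and 61.2, 45.2 and 73.1 CPM in ΔTE, a ratio of 1.22 (0.95 to 1.49). Gata3, required by both T cells and ILCs, was at 181, 174 and 187 CPM in WT and 273, 297 and 281 CPM in ΔTE, and its ratio of 0.65 (0.54 to 0.76) was nearly the same with and without well 2. Tcf7, the Notch-induced factor TCF1, stood at 0.14 (0.07 to 0.20) with overlapping wells. The RUNX genes differed from each other. Runx1 was at 1853, 1894 and 1941 CPM in WT and 1888, 1013 and 1817 CPM in ΔTE, and its ratio of −0.24 (−0.28 to −0.20) rested on well 2, being −0.01 without it and −0.95 for it alone. Runx2 was at 231, 235 and 223 CPM in WT and 180, 173 and 175 CPM in ΔTE, a ratio of −0.38 (−0.49 to −0.26) under 1.5-fold but with separate wells. Runx3 stood at 0.51 (0.44 to 0.59), also with separate wells. Of 9 Notch receptors and targets, 1 was lower, Dtx1, a Notch-induced ubiquitin ligase, at −0.61 (−0.87 to −0.35), while Il2ra, which encodes CD25, stood at −0.11 (−0.13 to −0.08) and Hes1, a Notch-induced repressor, at 0.13.

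Genes of the ILC and NK programmes mostly had ratios above 0. Of 8 tested ILC and NK lineage factors 4 were higher and 0 lower, beside 1.79% and 4.48% of all tested genes. Their median ratio was 0.48 against 0 over all tested genes. Zbtb16 was at 272, 285 and 276 CPM in WT and 735, 368 and 721 CPM in ΔTE, every ΔTE well above every WT well. Its ratio was 1.16 (1.08 to 1.24), 1.11 without stromal cells and 1.41 without well 2, but only 0.36 for well 2 alone, which is under 1.5-fold. Id2, an inhibitor of E proteins needed by all ILCs, was at 45.9, 40.6 and 46.7 CPM in WT and 76.2, 87.0 and 89.3 CPM in ΔTE, with a ratio of 0.90 (0.69 to 1.12) that was 0.94 in well 2 alone. Tox2, an HMG-box factor, stood at 1.80 (1.34 to 2.27) on 58 and 128 UMIs, and Nfil3, a bZIP factor that promotes ILC and NK development, at 0.63 (0.18 to 1.07) on 90 and 88 UMIs. Rora, a nuclear receptor needed by group 2 ILCs, was at 88.6, 78.1 and 73.8 CPM in WT and 106, 105 and 74.0 CPM in ΔTE, overlapping, with a ratio of 0.30 (0.13 to 0.47). It was itself stromal by the 4-fold rule, and its ratio without stromal cells was 0.82. Tbx21 and Eomes, T-box factors of NK cells and group 1 ILCs, had 10 or fewer UMIs in each library. Zeb2, a zinc finger repressor of mature NK cells, stood at −0.35 (−0.47 to −0.23).

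Among 13 tested NK receptor and granule genes, 6 were higher and 1 lower, beside 1.79% and 4.48% of all tested genes. Their median was 0.52. Gzma, the granzyme A protease, was at 950, 983 and 958 CPM in WT and 1558, 2068 and 1608 CPM in ΔTE, a ratio of 0.84 (0.79 to 0.88). Fcer1g, an adaptor chain of Fc and NK receptors, was at 132, 117 and 146 CPM in WT and 304, 427 and 307 CPM in ΔTE, a ratio of 1.38 (1.27 to 1.497). Tyrobp, the related adaptor DAP12, stood at 0.76 (0.61 to 0.92), and Itgae, the CD103 integrin chain of tissue lymphocytes, was at 28.2, 30.7 and 31.4 CPM in WT and 92.0, 79.0 and 101 CPM in ΔTE, a ratio of 1.58 (1.35 to 1.81). Cd7 and Cd244a, both surface receptors of NK and T cells, stood at 0.71 and 0.73. Itga1, an integrin chain also found on stroma, was the 1 lower member at −0.71 with overlapping wells, and its ratio was 0.23 without stromal cells. Nkg7, a granule protein, went the other way from the granzymes at −0.34 (−0.42 to −0.26), with overlapping wells. Gzmb, the granzyme B protease, stood at 0.52 (0.43 to 0.62).

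Several NK cell genes were too rare to be tested but had few molecules in WT and more in the smaller ΔTE library. Of these, Klrk1, Xcl1, Ncr1 and Klrd1 were picked after their values were seen. They are examples, and how many untested members went the other way is not given. Klrk1, which encodes NKG2D, had 11 and 63 UMIs, Xcl1, a chemokine of NK cells, 4 and 40, Ncr1, which encodes NKp46, 8 and 38, and Klrd1, which encodes CD94, 21 and 58. Klr genes are a family of similar sequences, and reads split between members cannot be told apart from the counts. Il2rb is the beta chain shared by the IL-2 and IL-15 receptors, both of whose ligands were in the medium. It too was under 100 UMIs and not tested, with 21 and 71 UMIs and a ratio of 2.41 (1.69 to 3.19).

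Of 15 tested ILC cytokine and costimulatory receptors, 5 were higher and 0 lower, beside 1.79% and 4.48% of all tested genes. Their median was 0.48. Tnfrsf9, the costimulatory receptor 4-1BB, was at 12.8, 12.5 and 10.2 CPM in WT and 45.3, 49.3 and 43.4 CPM in ΔTE, a ratio of 1.96 (1.61 to 2.33). Icos, a costimulatory receptor of T cells and group 2 ILCs, stood at 1.27 (0.79 to 1.75) on 63 and 96 UMIs. Il18r1, a chain of the IL-18 receptor, stood at 0.96, Il17rb, a chain of the IL-25 receptor, at 0.74 and Pdcd1, the inhibitory receptor PD-1, at 0.73, all 3 with separate wells. Il7r, the IL-7 receptor chain, stood at 0.48 (0.36 to 0.61) over the libraries and at 0.01 in well 2 alone, and Il12rb2, an IL-12 receptor chain, at −0.01. Taking the 3 ILC and NK lists together, 38.3% of thinned WT cells (37.4 to 39.2) and 51.5% of thinned ΔTE cells (50.3 to 52.6) held at least 2 UMIs, against 21.1% and 21.4% of stromal cells. The per-well shares in ΔTE were 49.8%, 53.3% and 52.4%, so this difference did not turn on well 2.

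**Figure D4:**
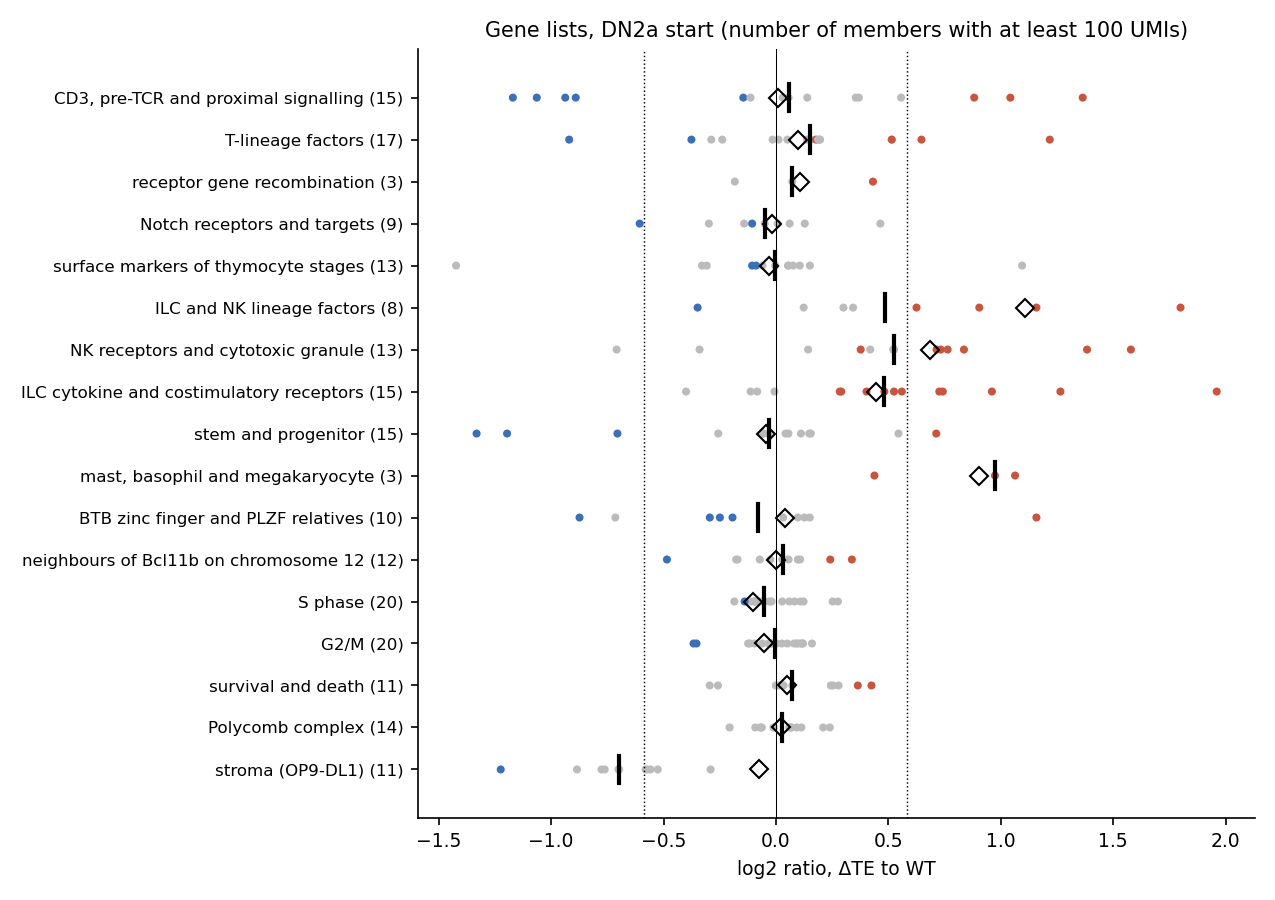
Each point is a tested member of a gene list at its log2 ratio of ΔTE to WT in the DN2a start, red or blue where all 3 ΔTE wells lay above or below all 3 WT wells; the bar is the list median and the open diamond the median without stromal cells. The medians of the 3 ILC and NK lists are 0.48, 0.52 and 0.48, and that of the stromal list moves from −0.70 to −0.08 without stromal cells.

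Beyond these lists, the 12 highest genes with separate wells were led by genes with no shared textbook role. Olfm3, a secreted olfactomedin, was at 4.41, 4.39 and 4.71 CPM in WT and 43.2, 26.3 and 61.2 CPM in ΔTE, a ratio of 3.24 (2.71 to 3.80). Tnni1, a troponin of slow muscle, stood at 3.01 (2.40 to 3.68) on 26 and 133 UMIs. Cxcr5, the receptor of the chemokine CXCL13, was at 17.6, 20.3 and 20.4 CPM in WT and 81.0, 75.6 and 86.8 CPM in ΔTE, 3 closely spaced values per genotype and a ratio of 2.05 (1.77 to 2.33). Ly6d, a surface protein of early lymphocytes, stood at 2.12 (1.74 to 2.52), and at 2.72 without WT well 2. Emid1, Adamtsl3, Gem, Aoah and Slc15a1 stood between 1.79 and 2.29. Of these 12 genes Gem alone had a ratio under 0.3 in the DN2b start and Aoah alone was under 0 in the DN1 start.

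The genes with the lowest ratios fell into a stromal and a non-stromal group. Lmod1, Ccn1, Ccn2, Cgnl1, Errfi1 and Thbs1, genes of contractile and matrix-secreting cells, were all at least 4-fold higher in stromal cells, and their ratios ran from −2.23 to −1.51. Without stromal cells Ccn1 stood at −0.20, Errfi1 at −0.14 and Thbs1 at −0.49. Without ΔTE well 2, the richest in stromal cells, Lmod1 stood at −4.39, Ccn1 at −3.03, Cgnl1 at −2.89 and Thbs1 at −2.38, and without ΔTE well 1 Lmod1 stood at −1.47. The other 6 were not stromal, and without stromal cells their ratios ran from −2.77 to −1.57. Mid1, an E3 ubiquitin ligase on the X chromosome, was at 633, 381 and 610 CPM in WT and 90.7, 103 and 98.7 CPM in ΔTE, a ratio of −2.46 (−2.60 to −2.32). Olfm5 and Olfr643, whose annotated ends lie 15.6 kb apart on chromosome 7, stood at −1.80 (−2.04 to −1.56) and −2.06 (−2.70 to −1.47). Afap1l1, an actin-associated protein, stood at −1.65, Chrm3, a muscarinic acetylcholine receptor, at −1.53, and Gm27733 at −1.60.

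Progenitor genes were mixed. Of 15 tested stem and progenitor genes 3 were lower and 1 higher, beside 4.48% and 1.79% of all tested genes. Their median was −0.03. Cd34, a sialomucin of early progenitors, was at 65.2, 66.9 and 71.5 CPM in WT and 19.8, 31.7 and 34.9 CPM in ΔTE, a ratio of −1.33 (−1.62 to −1.06). Mef2c, a MADS-box factor of progenitors and myeloid cells, stood at −1.20 (−1.71 to −0.71), and Meis1, a homeobox factor of stem cells, at −0.71 (−0.91 to −0.50). Mycn stood at 0.71 (0.48 to 0.94), and Kit, which encodes CD117, at 0.06 (−0.05 to 0.16). Of the 3 tested genes of mast cells, basophils and megakaryocytes, Itga2b, the CD41 integrin chain, was at 65.7, 61.2 and 60.9 CPM in WT and 123, 119 and 126 CPM in ΔTE, a ratio of 0.97 (0.80 to 1.15), Mcpt8, a basophil protease, stood at 1.06 (0.63 to 1.501) and Cpa3, a carboxypeptidase of mast cells and early progenitors, at 0.44 (0.38 to 0.50). Fcer1a, Ms4a2 and Prss34, which define mast cells and basophils, had 0 UMIs in both libraries. Zbtb38, a BTB zinc finger protein, stood at −0.87 (−1.05 to −0.70), the opposite direction to its relative Zbtb16.

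The surface markers were read after 4 days of culture, so they describe the descendants of the sorted DN2a cells and not the labelled stage. Il2ra reached 3940 and 3661 CPM (WT and ΔTE) and Thy1, a marker of T and ILC progenitors, 572 and 635 CPM. Cd8a and Cd8b1, co-receptors of later thymocytes, had 0 UMIs in both libraries, and Cd4 had 0 and 1. Of 3 tested monocyte and macrophage genes 1 was higher, Irf8 at 0.61 (0.09 to 1.13), and Csf1r, the defining receptor of macrophages, had 11 and 16 UMIs. Both tested B-cell genes were lower, Ebf1 at −0.82 (−1.75 without ΔTE well 2) with overlapping wells and stromal by the 4-fold rule, and Cd79b at −0.91 (−1.43 to −0.40), while Ms4a1, which encodes CD20, had 0 UMIs. Housekeeping and cycling lists stayed near 0, since 0 of 20 S phase, 0 of 20 G2/M, 0 of 14 Polycomb and 0 of 11 survival genes passed 1.5-fold, with medians between −0.05 and 0.07. Of 89 genes caught by a name pattern for cytosolic ribosomal proteins 1 was lower, Rps6kc1, which is a kinase-like protein and not a ribosomal one, and the median was 0.04. Of 83 nuclear respiratory chain genes 1 was lower, Cox4i2, an oxygen-regulated subunit of complex IV, at −1.11 (−1.71 to −0.53).

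Genes that tell the sex of a cell also differed. All 4 tested Y-linked genes were above 0, Uty at 0.75 (0.58 to 0.93), Kdm5d at 0.63, Eif2s3y at 0.60 and Ddx3y at 0.47 (0.26 to 0.68), each with separate wells. Xist was not among the genes of the table, but Gm27733, the 0.068 kb feature named above, is annotated inside it (GRCm38, chrX:103461218-103461285 within chrX:103460366-103483254) on the same strand, and Gm26992, which overlaps it on the other strand, stood at −1.25 (−1.71 to −0.81). The pools mixed males and females, and whether these values reflect more male cells in the ΔTE pool was not tested. Sex and genotype cannot be told apart for any gene that differs between the sexes, Mid1 on the X chromosome included.

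Some ratios changed with the ΔTE well. Camk1d, a calmodulin-dependent kinase gene, was at 1885, 2456 and 1662 CPM in WT and 7797, 379 and 1568 CPM in ΔTE, so its ratio of 1.01 turned to −1.18 without ΔTE well 1. Lars2, the mitochondrial leucyl-tRNA synthetase gene, was at 144, 163 and 125 CPM in WT and 2433, 237 and 129 CPM in ΔTE, with a ratio of 3.08 that fell to 0.37 without ΔTE well 1. Mir6236 and Dmtn had 115 and 127 CPM in ΔTE well 1 and less than 3 CPM in every other well. Other genes were high in ΔTE wells 1 and 3 but not in well 2. Hs6st3, a heparan sulphate sulphotransferase gene, was at 1821, 793 and 1669 CPM in ΔTE against 807 to 863 CPM in WT, a ratio of 0.82 that was −0.12 in well 2 alone. Pde4d, a cAMP phosphodiesterase gene, was at 2897, 1646 and 2850 CPM in ΔTE against 1914 to 2016 CPM in WT, so that its ratio of 0.34 became −0.31 in well 2 alone.

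The DN1 and DN2b starts used other libraries, with 1.04% and 2.82% of tested genes higher and 1.42% and 3.21% lower at 1.5-fold. The mitochondrial limit removed 35.3% (WT) and 30.6% (ΔTE) of DN1 cells and 40.9% and 56.6% of DN2b cells, against 2.59% and 26.8% in DN2a. Stromal cells then formed 2.22% and 1.63% in DN1 and 3.22% and 1.47% in DN2b, against 9.36% and 6.03% in DN2a. Of the 177 genes higher in the DN2a start, 44 had the same call in the DN1 start, 53 in the DN2b start and 21 in both, out of 135 and 79 with at least 100 UMIs there. Of the 443 lower genes, 59 had the same call in DN1, 60 in DN2b and 23 in both, out of 216 and 87. Gzma stood at 0.63 (0.57 to 0.69) in DN1 and 0.85 (0.75 to 0.95) in DN2b, near its 0.84 in DN2a. Zbtb16 stood at 0.56 (0.46 to 0.65) in DN1 and 1.09 (0.92 to 1.25) in DN2b, and Fcer1g at 0.78 (0.65 to 0.91) and 2.16 (1.85 to 2.48). Cd3g stood at −1.61 (−1.89 to −1.35) in DN1 but at −0.26 (−0.39 to −0.13) in DN2b, and Cd3d, with a ratio of −0.09 (−0.41 to 0.22) in DN2b, had overlapping wells there. Cd34 ran the other way, at −0.24 (−0.41 to −0.07) in DN1 and −2.53 (−3.32 to −1.83) in DN2b. Mid1 was low in every start, at −3.46 in DN1 and −3.15 in DN2b, as was Olfm5, at −1.50 and −1.81. Cxcr5 stood at 1.97 (1.56 to 2.40) and 2.91 (2.26 to 3.61). With 1 library per genotype and start, none of these differences between starts was tested.

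**Figure D5:**
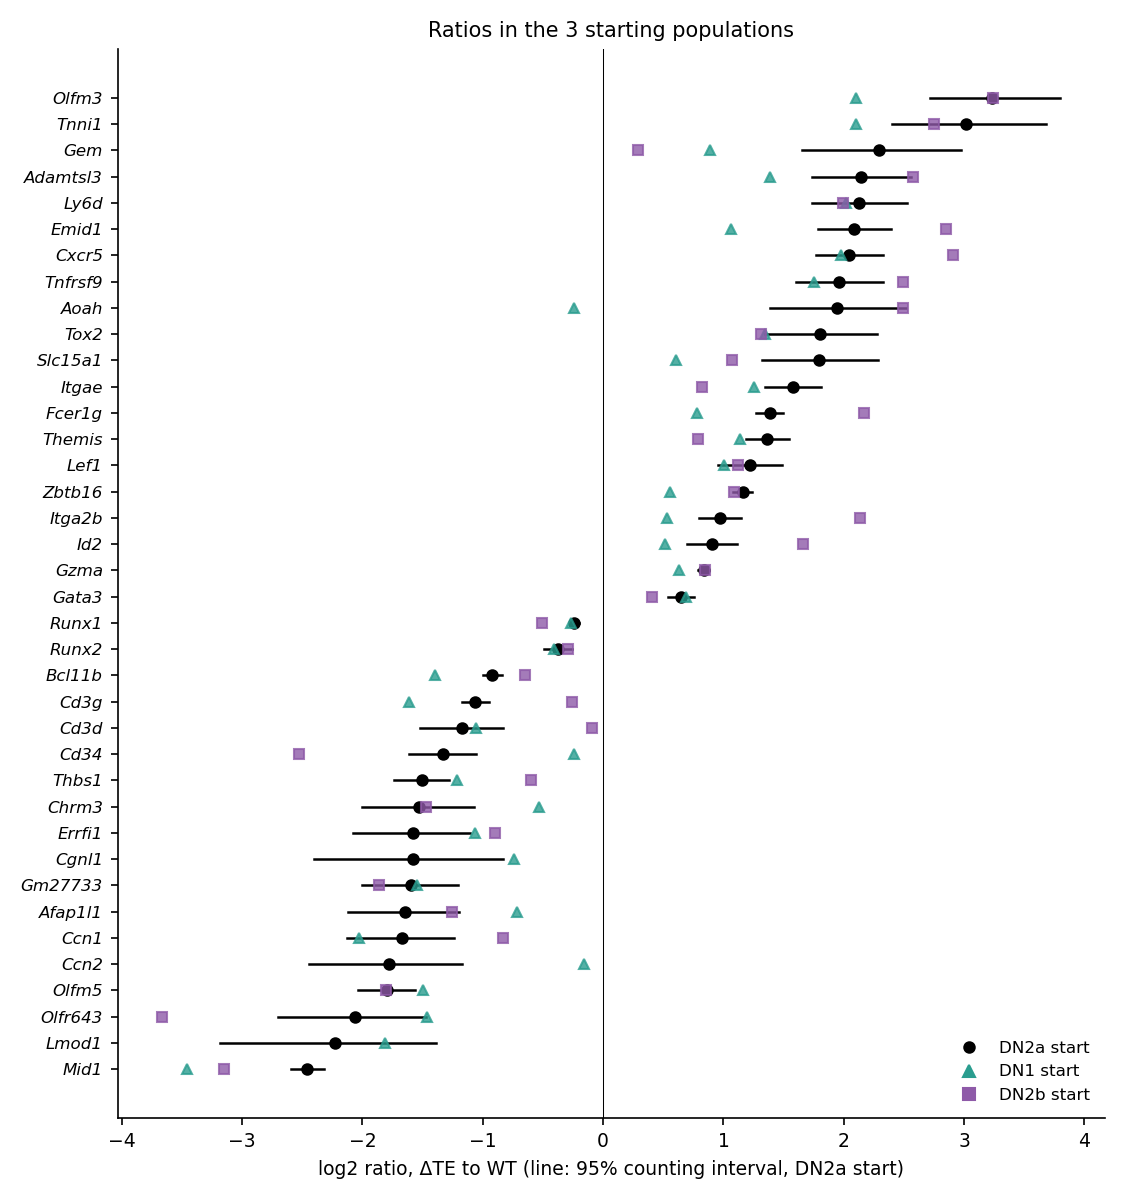
Log2 ratios of ΔTE to WT for the 12 highest and 12 lowest genes with separate wells and for genes discussed in the text, in the DN2a start (black, with the 95% counting interval), the DN1 start (green triangles) and the DN2b start (purple squares), where that start held at least 20 UMIs. Bcl11b and Cd3g have their smallest reduction in the DN2b start, whereas Mid1 is below −2 in all 3.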

How the data were processed

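The samples were 6 sci-RNA-seq3 libraries of mouse progenitors, 1 per genotype and start, and the 2 DN2a-start libraries were compared. The authors deposited a sparse matrix of UMI counts per gene and barcode for each library (28048 genes, unit counts, not normalised); the submitters' processing notes name the genome build mm9, and the aligner is not given in the sources used here. The deposited files hold no coordinates, so positions are from GENCODE M21 (GRCm38), matched by Ensembl ID for 27924 genes, and promoters from RefSeq (GRCm38.p6), where 7916 of the 9899 tested genes matched. Cells were kept at 200 or more genes, 2000 or fewer UMIs and 30% or less mitochondrial UMIs; the 37 mitochondrial genes were left out of totals, and no doublet caller was run. Counts were summed per library and per reverse-transcription well, read from the third field of the barcode. Ratios, exact binomial and Poisson intervals, and thinned shares (seed 0, exact Clopper-Pearson intervals) were computed with Python 3.11.15, numpy 2.4.6 and scipy 1.17.1, and edgeR 4.0.16 gave TMM factors for 1 alternative. The ratio calculation was tested on simulated data. Intervals and shares cover counting error only.

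With 1 library per genotype, no p-value is given. A gene was tested at 100 or more UMIs over both libraries and called at 1.5-fold. A cell was stromal at 3 or more UMIs on the 12-gene stromal list, and analyses without stromal cells left out cells with 2 or more, keeping 17533 WT and 10830 ΔTE cells. Genes were named if the study discusses them for this experiment, if they were among the 12 highest or 12 lowest ratios with separate wells (or would have been but for overlapping wells, up to 5 each way), if they had the largest ratios (3) or most UMIs (2) of a list, or if they differed most in CPM (5 each way); other list members and Gm26992 were added after their values were seen. The members and the 27 lists were chosen with earlier results of these data known. The deposited tables of the other starts entered only the side-by-side ratios, and 21 alternatives were planned and 4 added after seeing the data.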

Additional observations from a re-analysis of the deposited data

Results flagged for a closer look

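For 4 genes the library ratios (log2, ΔTE over WT) were past 1.5-fold in opposite directions in the DN2a and DN2b starts; the difference between the starts was not tested, since each held 1 library per genotype. Camk1d stood at 1.01 in the DN2a start and −1.46 in the DN2b start. CT010467.1, annotated as a ribosomal RNA, stood at 0.69 and −0.60. Gphn, which encodes the scaffold protein gephyrin, stood at 1.39 and −1.10. Zfp318, a zinc finger gene, stood at −0.68 and 3.12. In the DN2a start ΔTE well 1 held 7797 CPM of Camk1d, 2877 CPM of CT010467.1 and 1442 CPM of Gphn, while wells 2 and 3 held 379 and 1568, 876 and 765, and 409 and 366 CPM.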

How the results depend on the processing

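Of 25 alternative settings (21 planned, 4 chosen after seeing the data), up to 20 recomputed gene ratios, and the others gave only counts or cell shares. In the settings that recomputed a gene, 51 of 64 named genes past 1.5-fold always kept their direction. The other 13 turned in at least 1, and the cause was not tested. Of the 64, 28 higher and 23 lower genes had separate wells. Settings that only leave out wells could hardly turn such genes, so they are no check on the direction of those genes. The number of higher and lower genes was 177 and 443; it was 109 and 713 with mitochondrial genes in the totals (which moved the median gene to −0.14), 113 and 161 without cells with 2 or more ILC or NK UMIs, 482 and 960 at 20 UMIs per gene, 57 and 102 at 500 UMIs (fewer or more genes tested), and 56 and 91 at 2-fold. Lower genes alone changed to 130 without the mitochondrial limit, to 154 and 142 without cells with at least 2 or at least 1 stromal UMIs, and to 192 for ΔTE wells 1 and 3 without stromal cells. ΔTE well 2 alone gave 777 higher and 791 lower genes, and 633 and 713 without stromal cells. Leaving out 1 well at a time gave 166 (without WT well 3) to 234 (without ΔTE well 2) higher genes, and 281 lower genes without ΔTE well 1, 294 without ΔTE well 3 and 796 without ΔTE well 2.

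The Bcl11b ratio was −1.06 with mitochondrial genes in the totals, −1.01 without the mitochondrial limit, −1.12 at 20% mitochondrial UMIs, −0.82 in wells 1 and 3 without stromal cells, −1.51 in well 2 alone and −1.43 there without stromal cells; leaving out 1 well at a time it ran from −1.09 to −0.72. The median of the 3 ILC and NK lists stayed between 0.38 and 0.72 over 19 alternatives (0.47 to 0.54 leaving out wells), that of the CD3 list between −0.22 and 0.23 (−0.00 to 0.23), and that of the T-lineage factors between −0.25 and 0.17 (−0.01 to 0.17), the low end being −0.25 in well 2 alone and −0.17 there without stromal cells.

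Among single genes, ΔTE well 1 set the sign of Camk1d, Mir6236, Dmtn and CT010467.1, whose ratios leaving out 1 well at a time ran from −1.18 to 1.503, −1.05 to 6.998, −1.93 to 5.91 and −0.42 to 0.997, the low ends being without that well. In well 2 alone the ratio was −2.46 for Camk1d, −0.37 for CT010467.1, −0.12 for Hs6st3, −0.069 for Ccr9, 0.057 for Bcl6, 0.48 for Lox, 0.52 for Col1a2, 0.27 for Col6a3 and 0.21 for Ebf1, and there without stromal cells −2.46 for Camk1d, −0.34 for CT010467.1 and 0.38 for Col6a3. Stromal genes changed sign without the mitochondrial limit (Col1a2 0.023, Col6a3 0.16, Ebf1 0.45), without cells of 2 stromal UMIs (Lox 0.0098, Col1a2 0.085) or of 1 (Errfi1 0.23), and in wells 1 and 3 without them (Timp3 0.11, Lox 0.062, Errfi1 0.19, Col1a2 0.17).

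Thinned to 200 UMIs, WT and ΔTE cells with Bcl11b were 10.9% and 5.81%, with Zbtb16 4.78% and 10.4%, and with the 3 ILC and NK lists 24.1% and 35.8%; unthinned they were 18.7% and 10.9%, 8.69% and 18.4%, and 47.2% and 61.9%. No paired analysis was possible because each group was 1 library and the labels give no replicate numbers. Genes under 100 UMIs were given no call at this depth, except in the setting of 20 UMIs per gene.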

Other observations

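Motif letters were counted in the promoters (250 bases before the start) of the genes past 1.5-fold with separate wells, as a description with no test; a gene can have several promoters in the table. The RUNX letters TGTGGT stood in 16.0% of 144 promoters of higher genes and in 18.7% of 107 promoters of lower genes that were not stromal, beside 10.5% of 10142 promoters of all tested genes. The E-box letters CAGCTG stood in 14.6% and 12.1%, beside 11.2%, and the GATA letters AGATAA in 6.25% and 7.48%, beside 5.45%. The TCF/LEF letters CTTTGA stood in 13.9% and 14.0%, beside 10.0%, so all 4 shares were above those of the tested genes in both directions. The GATA shares rested on only 9 and 8 promoters. Over all 32851 promoters the shares were 14.0% (RUNX), 13.0% (E-box), 9.99% (GATA) and 13.8% (TCF/LEF). Against these, the GATA shares were lower in both directions. The E-box share was lower for the lower genes that were not stromal, and the TCF/LEF shares of these and of the higher genes were nearly the same. With stromal genes included, the 165 promoters of lower genes gave 14.5% (RUNX), 13.3% (E-box), 6.67% (GATA) and 10.9% (TCF/LEF).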
